A study of Mus musculus with 15 samples.

Results

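Fc receptors and the adaptors, kinase, phospholipase and phosphatases that act on their signal were followed across 15 wild-type mice. They comprised 10 genes, chosen by symbol: the adaptors Tyrobp, Fcer1g and Hcst, the receptors Fcgr1, Fcgr3 and Fcgr2b, the effectors Syk and Plcg2, and the phosphatases Ptpn6 and Inpp5d. Of the 10 genes, 9 had a level in every mouse, out of 19261 genes of which this was true, and these 9 also passed the filter on low values (above 0.5 TPM in at least 5 mice), which left 17714 genes tested. Hcst was listed for the control and vehicle mice and was not analysed in the siponimod mice.

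In microglia and other myeloid cells, receptors for IgG and for lipids or damaged cells have short tails and pass their signal through small adaptors that carry an immunoreceptor tyrosine-based activation motif (ITAM). Src family kinases phosphorylate the motif, the kinase Syk docks on it, and phospholipase C and other effectors follow. Receptors with an inhibitory motif recruit phosphatases that oppose the signal. In the brain, the Fc receptors and ITAM adaptors are known mainly from microglia, the resident macrophages.

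Each mouse gave 1 RNA sample of corpus callosum together with neocortex, and there were 3 groups of 5 mice. Control mice received standard food and no treatment. Vehicle mice were fed 0.25% (w/w) cuprizone, a copper chelator that kills oligodendrocytes, for 3 weeks and were given a vehicle, and siponimod mice were fed the same cuprizone for 3 weeks and given siponimod at 3.125 mg/kg, a modulator of sphingosine 1-phosphate receptors. No vehicle is named for the control mice, so vehicle and cuprizone cannot be told apart in the comparisons with control, and the labels name no age, sex or strain. Levels are TPM, a share of all transcripts that is corrected for transcript length. They keep no sequencing depth, and how many reads lie behind a value is therefore unknown.

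The library of vehicle mouse 1 differed from the other 14. Its median gene had 5.54 TPM, against 11.8 to 13 TPM in the others, and Bc1, a small neuronal non-coding RNA, took 35.1% of its TPM, against 6.0% to 10.8%. Each library was therefore scaled to a common median gene before testing, by a factor of 2.29 in vehicle mouse 1 and of 0.975 to 1.07 in the others. After scaling, the shortest 10% of genes in vehicle mouse 1 lay at 0.94 log2 from the other vehicle mice. The longest 10% lay at -0.56 log2 from them, a gradient that scaling does not remove. The genes described here broadly followed transcript length in that mouse, from Tyrobp (564 bases) at 1.54 log2 above the mean of the other vehicle mice to Inpp5d (4937 bases) at -0.46 log2. Results are therefore given with and without vehicle mouse 1. Siponimod mouse 1 was left out with it, since the authors' deposited fold changes lay closer to folds of unscaled mean TPM without these 2 mice. The median difference over the genes described here was 0.029 log2 for vehicle against control (0.11 log2 with all mice). For siponimod against control it was 0.036 log2 (0.22 log2 with all mice). Fcgr1 was far off either way there (deposited 0.55 log2, 0.97 with all mice, 0.92 without). Which mice the authors used is not known. Cell type markers followed the labelled tissue: the 4 oligodendrocyte markers summed to between 1351 and 2111 TPM in control mice, and each of them fell in both cuprizone groups (limma). All 12 microglial markers examined had a level in every mouse.

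Promoter sequences are shown for 4 genes: Fcer1g, which was planned, and Fcgr1, Fcgr3 and Inpp5d, the 3 genes that held the letters searched for. The Tyrobp window was also planned, but no entry was matched for it. Whether these letters bear on the levels was not tested. RefSeq entries (GRCm38.p6) were matched for 9 of the 10 genes, with 11 start sites in all, and the bases directly upstream of each start were searched on both strands for GAGGAAG, a core form of the site of the myeloid transcription factor PU.1 (CTTCCTC when it lies on the opposite strand). Capitals mark these letters, each sequence runs 5′ to 3′ on the strand of its gene, and the Fcgr3 start lies within the gene as GENCODE draws it.
Fcer1g, chr1:171234350-171234599, minus strand: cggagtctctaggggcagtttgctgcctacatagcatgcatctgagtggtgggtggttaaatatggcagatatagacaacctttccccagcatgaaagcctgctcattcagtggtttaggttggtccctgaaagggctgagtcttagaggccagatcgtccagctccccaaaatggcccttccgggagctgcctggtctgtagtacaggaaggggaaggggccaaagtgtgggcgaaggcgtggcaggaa
Fcgr1, chr3:96293970-96294219, minus strand: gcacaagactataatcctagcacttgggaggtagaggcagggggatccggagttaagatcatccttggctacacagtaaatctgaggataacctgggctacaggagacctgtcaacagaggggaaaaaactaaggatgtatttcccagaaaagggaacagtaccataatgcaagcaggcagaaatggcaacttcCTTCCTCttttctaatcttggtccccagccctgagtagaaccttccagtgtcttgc
Fcgr3, chr1:171059395-171059644, minus strand: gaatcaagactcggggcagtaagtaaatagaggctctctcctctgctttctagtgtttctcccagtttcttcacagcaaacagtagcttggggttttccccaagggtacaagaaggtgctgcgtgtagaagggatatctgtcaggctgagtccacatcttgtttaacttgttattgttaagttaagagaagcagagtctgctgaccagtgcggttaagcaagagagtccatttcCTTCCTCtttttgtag
Inpp5d, chr1:87620062-87620311, plus strand: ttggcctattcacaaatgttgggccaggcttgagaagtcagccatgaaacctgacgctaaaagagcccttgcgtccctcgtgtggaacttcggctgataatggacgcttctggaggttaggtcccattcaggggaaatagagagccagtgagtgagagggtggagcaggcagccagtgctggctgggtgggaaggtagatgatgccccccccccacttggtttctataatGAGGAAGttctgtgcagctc
The letters stood 50 to 56 bases before the start of Fcgr1, 10 to 16 bases before that of Fcgr3 and 14 to 20 bases before that of Inpp5d. They were found in 4 of the 11 windows, which belong to 3 of the 9 genes, and in 10.6% (3486 of 32851) of all RefSeq promoter windows of 250 bases. The windows of Fcgr3 overlap and hold the same site, which is therefore counted more than once among the 4. A match of letters only describes the sequence, and Fcer1g holds none in this window.

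In control mice the adaptor Tyrobp had the highest level of the 10 genes, at 31.8 ± 3.79 TPM (mean ± SD, n = 5). Fcer1g followed at 14.5 ± 1.87 TPM, Fcgr3 at 11.3 ± 0.828 TPM and Inpp5d at 9.27 ± 2.40 TPM. The ranges of these last 3 genes overlapped from each to the next, whereas Tyrobp lay above all of them in every control mouse. Fcgr2b (3.09 ± 0.531 TPM) and Ptpn6 (3.00 ± 0.225 TPM) formed a middle pair with overlapping ranges. Syk (1.97 ± 0.187 TPM), Fcgr1 (1.84 ± 0.280 TPM), Plcg2 (1.57 ± 0.251 TPM) and Hcst (0.849 ± 0.530 TPM) were the lowest, again with ranges that overlapped from each to the next.

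After 3 weeks of cuprizone with vehicle, 7 of the 9 tested genes rose against control: both adaptors, all 3 Fcγ receptors, Plcg2 and Ptpn6, by 1.47-fold to 2.75-fold. Syk and Inpp5d did not pass the test. Over all genes tested 1.38% were called higher (limma, Benjamini-Hochberg adjusted p under 0.05), and the median log2 fold change was 0.98 over the 9 genes and 0.0072 over all genes. In bulk tissue, more cells of a type and more RNA per cell cannot be told apart. In the same 7 genes every vehicle mouse lay above every control mouse after scaling, which was the case for 2.68% of all genes tested.

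Tyrobp encodes DAP12, the ITAM adaptor of Trem2 and other microglial receptors (ENSMUSG00000030579, GRCm38 chromosome 7, 30413760 to 30417585, plus strand). It had 27.4, 28.5, 35.8, 32.2 and 35.0 TPM in control mice 1 to 5 and 91.5, 63.6, 64.1, 47.5 and 124 TPM in vehicle mice 1 to 5. The lowest vehicle mouse lay above the highest control mouse, and vehicle mice 1 and 5 were the highest. The rise was 2.75-fold (log2 1.46, 95% interval 0.77 to 2.15, adjusted p = 0.0262 in limma), and 2.22-fold without vehicle mouse 1 and siponimod mouse 1 (adjusted p = 0.00229).

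Fcer1g encodes the common γ chain, the ITAM adaptor that Fcgr1 and Fcgr3 need at the cell surface (ENSMUSG00000058715, chromosome 1, 171229572 to 171234365, minus strand). Its level was 11.4, 16.5, 15.3, 14.5 and 14.7 TPM in control mice and 25.7, 22.6, 28.8, 17.5 and 49.4 TPM in vehicle mice. Vehicle mouse 4 came within a small margin of the highest control mouse, and as deposited vehicle mouse 5 was far above the rest. After scaling, vehicle mouse 1 was the highest (58.8 TPM, with 48.6 TPM in vehicle mouse 5). The rise was 2.20-fold (log2 1.14, interval 0.54 to 1.73, adjusted p = 0.0431 in limma) and 1.90-fold without both mice numbered 1 (adjusted p = 0.0248).

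Hcst encodes DAP10, an adaptor that signals through phosphoinositide 3-kinase and has no ITAM (ENSMUSG00000064109, chromosome 7, 30417712 to 30419854, minus strand), and its end lies 127 bases from that of Tyrobp on the opposite strand. Control mice had 0.378, 0.938, 1.64, 0.341 and 0.949 TPM and vehicle mice 1.38, 1.80, 0.638, 0.443 and 0.477 TPM. The groups overlapped almost entirely. The difference was 0.30 log2 (exact permutation test, two-sided, p = 0.556), and -0.01 log2 without vehicle mouse 1 (exact p = 0.968). The ratio of Hcst to Tyrobp was lower in vehicle than in control mice by 1.17 on the log2 scale, with overlapping ranges, and did not pass correction (exact permutation p = 0.0238, adjusted p = 0.127 over the 16 ratio tests).

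**Figure D1:**
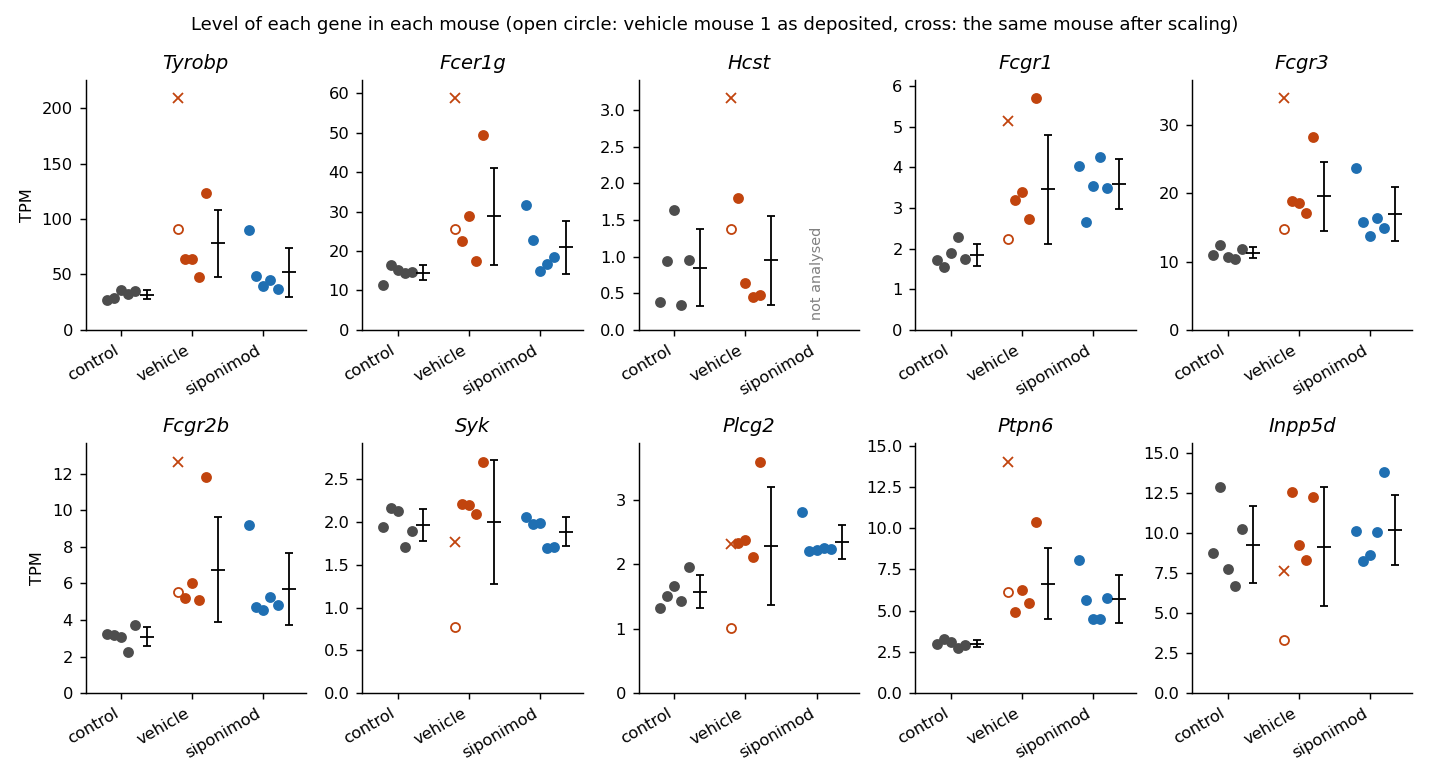
Level of each gene in TPM (linear axis from 0) in each of the 15 mice, as deposited, with the mean and SD of each group beside the points (n = 5). The open circle is vehicle mouse 1 as deposited and the cross the same mouse after scaling, as at 209 TPM for Tyrobp, and vehicle mouse 5 is the highest deposited value in vehicle mice for 8 of the 10 genes.

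Among the receptors, Fcgr3, a low-affinity activating receptor for IgG (ENSMUSG00000059498, chromosome 1, 171051174 to 171064935, minus strand), had 11.04, 12.4, 10.7, 10.4 and 11.8 TPM in control mice and 14.9, 18.9, 18.7, 17.1 and 28.2 TPM in vehicle mice. Already as deposited, each vehicle mouse was above each control mouse. The rise was 1.97-fold (log2 0.98, interval 0.61 to 1.35, adjusted p = 0.00518 in limma), and 1.79-fold without both mice numbered 1 (adjusted p = 0.000513). Fcgr1, the high-affinity IgG receptor (ENSMUSG00000015947, chromosome 3, 96282909 to 96293969, minus strand), had 1.73, 1.54, 1.89, 2.29 and 1.74 TPM in control mice and 2.25, 3.20, 3.38, 2.73 and 5.70 TPM in vehicle mice. Only vehicle mouse 1 fell within the control range, and it left that range after scaling (5.13 TPM). The rise was 1.90-fold (log2 0.93, interval 0.56 to 1.29, adjusted p = 0.00792) with all mice and 1.79-fold without both mice numbered 1 (adjusted p = 0.0109).

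Fcgr2b, the inhibitory Fc receptor, which carries its own inhibitory motif and no ITAM adaptor (ENSMUSG00000026656, chromosome 1, 170958617 to 170976547, minus strand), rose together with the activating receptors. Control mice had 3.23, 3.19, 3.05, 2.25 and 3.72 TPM and vehicle mice 5.54, 5.21, 6.05, 5.10 and 11.8 TPM. The groups did not overlap, and as deposited 4 of the 5 vehicle mice lay close together below vehicle mouse 5. After scaling, vehicle mouse 1 was the highest (12.7 TPM, with 11.7 TPM in vehicle mouse 5). The rise was 2.28-fold (log2 1.19, interval 0.66 to 1.73, adjusted p = 0.0184 in limma) and 2.03-fold without both mice numbered 1 (adjusted p = 0.00645). The ratio of Fcgr2b to Fcgr3 was 0.21 log2 higher in vehicle mice, a difference that did not pass the test (exact permutation p = 0.127, adjusted p = 0.290). The split of reads between these 2 genes is uncertain, since 13.4% of the 31-base stretches of Fcgr3 transcripts also occur in Fcgr2b transcripts. An antisense gene overlaps Fcgr2b, and another overlaps Ptpn6.

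Of the effectors, Plcg2, which encodes the phospholipase C that Syk activates (ENSMUSG00000034330, chromosome 8, 117498291 to 117635142, plus strand), had 1.31, 1.50, 1.67, 1.42 and 1.96 TPM in control mice and 1.01, 2.33, 2.38, 2.11 and 3.59 TPM in vehicle mice. Vehicle mouse 1 was below every control mouse as deposited and above them after scaling (2.31 TPM). The rise was 1.47-fold (log2 0.55, interval 0.29 to 0.82, adjusted p = 0.0283 in limma) and 1.50-fold without both mice numbered 1 (adjusted p = 0.0172). The call was lost when libraries were scaled by taking Bc1 out and restoring the total, in place of the median gene (log2 0.47, adjusted p = 0.297). Syk itself, the kinase that binds phosphorylated ITAMs (ENSMUSG00000021457, chromosome 13, 52583173 to 52648792, plus strand), had 1.94, 2.17, 2.13, 1.71 and 1.89 TPM in control mice and 0.772, 2.21, 2.20, 2.09 and 2.71 TPM in vehicle mice. The groups overlapped. The fold change was 1.10 (log2 0.13, interval -0.09 to 0.35, adjusted p = 0.664), and 1.15 without both mice numbered 1 (adjusted p = 0.371).

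Of the phosphatases, Ptpn6 passed the test and Inpp5d did not, and the difference between them was not tested. Ptpn6, which encodes the tyrosine phosphatase SHP1 (ENSMUSG00000004266, chromosome 6, 124720707 to 124738714, minus strand), had 2.96, 3.31, 3.11, 2.71 and 2.90 TPM in control mice and 6.14, 4.95, 6.25, 5.47 and 10.4 TPM in vehicle mice. Every vehicle mouse was well above the narrow control range. The rise was 2.34-fold (log2 1.22, interval 0.74 to 1.71, adjusted p = 0.00798 in limma) and 2.03-fold without both mice numbered 1 (adjusted p = 0.00171). Inpp5d, which encodes the inositol phosphatase SHIP1 (ENSMUSG00000026288, chromosome 1, 87620312 to 87720507, plus strand), had 8.76, 12.9, 7.77, 6.71 and 10.2 TPM in control mice and 3.34, 12.5, 9.27, 8.34 and 12.2 TPM in vehicle mice. The groups overlapped widely, and the fold change of 1.09 (log2 0.12, interval -0.29 to 0.54, adjusted p = 0.799) did not pass the test.

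Fcgr1, Fcgr3 and Ptpn6 were called in each of the 15 fits that left out 1 mouse (highest adjusted p = 0.0276, 0.0194 and 0.0291 in limma), and they were also the 3 genes called when vehicle and control mice were fitted alone, where 0.728% of all genes were called higher. The other 4 calls depended on single mice: without vehicle mouse 5 only the same 3 genes were called (0.762% of all genes), and Tyrobp, Fcer1g, Fcgr2b and Plcg2 were not. Fcgr2b was also lost without control mouse 4 (highest adjusted p = 0.0596), and Tyrobp in the fits without control mouse 1, 2, 4 or 5 (highest 0.0830). Plcg2 was also lost when vehicle mouse 3 or any 1 of control mice 1 to 4 was left out (highest 0.0814). Fcer1g was lost in 10 of the 15 fits, without any 1 control mouse, vehicle mouse 3 or 5, or siponimod mouse 2, 4 or 5 (highest 0.135). Without both vehicle mice 1 and 5, the mice with the highest Tyrobp, 4 genes were called (Fcgr1, Fcgr3, Ptpn6 and Tyrobp, against 1.14% of all genes). On TPM without scaling 3 were called (Tyrobp, Fcgr3 and Ptpn6, against 0.423%), and without both mice numbered 1 the same 7 as with all mice (against 2.41%). Unscaled TPM moved the median of all genes to -0.21 log2, and there the estimates of Syk and Inpp5d were -0.044 and -0.11 log2.

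The authors' deposited table for this comparison, made from these groups, listed 8 of the 10 genes as higher at an adjusted p under 0.05, against 3.86% of all genes listed. It differed from the fit above in Inpp5d, with a fold of 1.30 (adjusted p = 0.0164 in the authors' deposited table). Syk had a fold of 1.22 (adjusted p = 0.164) and Hcst of 1.02 (adjusted p = 0.994) in the authors' deposited table.

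**Figure D2:**
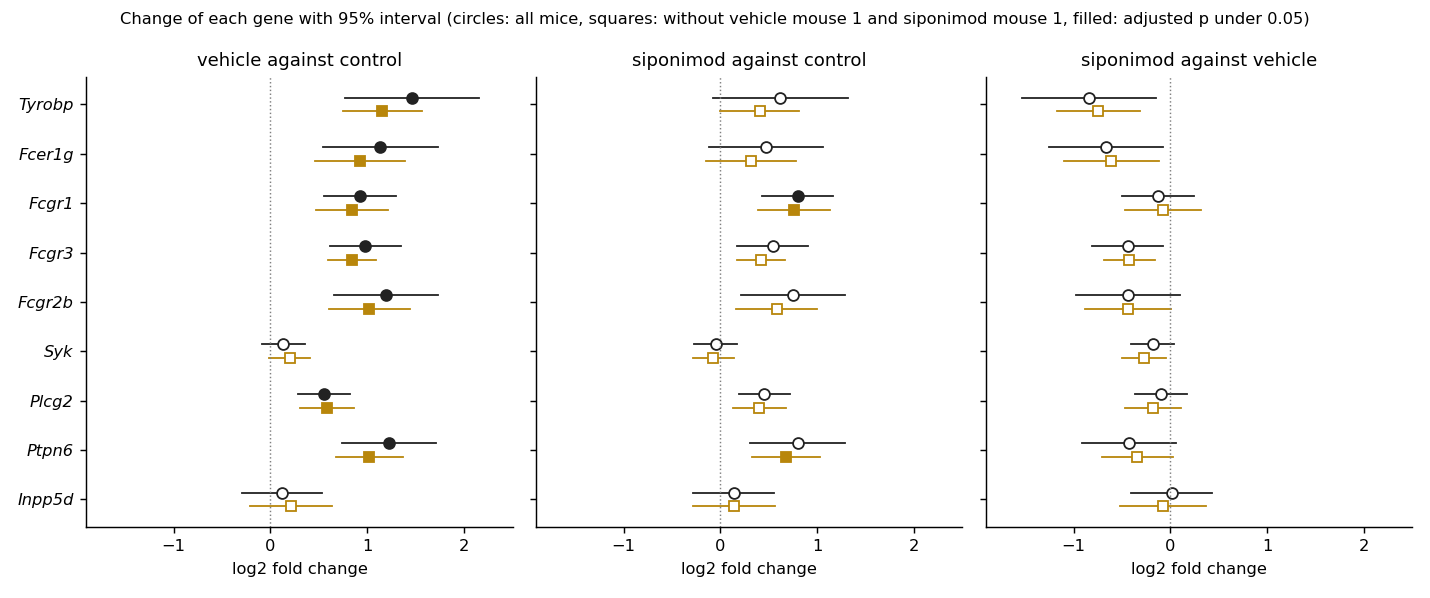
Log2 fold change of each gene with its 95% limma interval in the 3 comparisons, with all mice (circles) and without vehicle mouse 1 and siponimod mouse 1 (squares), filled where the adjusted p is under 0.05. In vehicle against control 7 of 9 genes are filled under both choices, in siponimod against control Fcgr1 is, joined by Ptpn6 among the squares, and in siponimod against vehicle none is.

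With siponimod, mean levels of the 7 genes that rose in vehicle mice lay between those of control and vehicle mice or near the latter, and 1 of the 9 genes, Fcgr1, was called against control, where 0.429% of all genes were called higher (limma). In 6 genes (Tyrobp, Fcgr1, Fcgr3, Fcgr2b, Plcg2 and Ptpn6) every siponimod mouse nevertheless lay above every control mouse after scaling, which was the case for 2.70% of all genes. Both comparisons with control use the same control mice. Fcgr1 had 4.03, 2.65, 3.55, 4.24 and 3.48 TPM in siponimod mice 1 to 5, all above the highest control mouse. Its rise was 1.74-fold (log2 0.80, interval 0.43 to 1.17, adjusted p = 0.0316 in limma), and 1.70-fold without both mice numbered 1 (adjusted p = 0.0329). That call was lost on unscaled TPM (adjusted p = 0.0919 in limma) and with mouse number added to the fit (adjusted p = 0.0515 in limma). It was also lost in 8 of the 15 fits without 1 mouse (highest adjusted p = 0.103 in limma). These left out control mouse 1, 2, 3 or 5, or siponimod mouse 1, 3, 4 or 5.

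Ptpn6 had 8.09, 5.67, 4.49, 4.49 and 5.80 TPM in siponimod mice, a fold of 1.74 over control (log2 0.80, interval 0.31 to 1.28, adjusted p = 0.158 in limma). Fcgr3 had 23.7, 15.8, 13.7, 16.5 and 14.997 TPM (fold 1.45, interval 0.17 to 0.91 log2, adjusted p = 0.256). Fcgr2b had 9.21, 4.70, 4.53, 5.28 and 4.81 TPM (fold 1.68, interval 0.22 to 1.29 log2, adjusted p = 0.297). In each of these 3 genes siponimod mouse 1 was the highest of its group, and the other 4 mice lay close together above the control range. Plcg2 had 2.81, 2.20, 2.21, 2.24 and 2.24 TPM, again above all control mice (fold 1.37, interval 0.19 to 0.72 log2, adjusted p = 0.128). For the adaptors, Tyrobp had 89.9, 48.3, 39.4, 45.0 and 36.6 TPM (fold 1.54, interval -0.07 to 1.31 log2, adjusted p = 0.806). Fcer1g had 31.8, 22.8, 14.9, 16.7 and 18.5 TPM, with siponimod mouse 3 inside the control range (fold 1.39, interval -0.12 to 1.06 log2, adjusted p = 0.906). Syk (2.06, 1.98, 1.99, 1.70 and 1.71 TPM) and Inpp5d (10.2, 8.25, 8.64, 10.1 and 13.8 TPM) overlapped the control mice, with folds of 0.966 and 1.10.

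The number called differed with the mice in the fit. With siponimod and control mice fitted alone, 4 genes were called (Fcgr1, Ptpn6, Fcgr3 and Fcgr2b, against 1.43% of all genes called higher). Without vehicle mouse 1 it was 3 (Fcgr1, Ptpn6 and Fcgr3, against 1.41%), and without both mice numbered 1 it was 2 (Fcgr1 and Ptpn6, adjusted p = 0.0436 for Ptpn6, against 0.977%). The authors' deposited table listed 6 of 9 genes as higher at an adjusted p under 0.05, against 2.55% of all genes listed: Fcgr3, Ptpn6, Plcg2, Fcgr2b, Fcgr1 and Tyrobp.

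The direct comparison of siponimod with vehicle mice asked whether the drug moved these genes. Limma called 0% of all genes tested (0 of 17714, with 800 at an unadjusted p under 0.05) and none of the 9. Of the 9 genes, 8 had lower estimates with siponimod. Tyrobp was at 0.558 of its vehicle level (log2 -0.84, interval -1.53 to -0.15), Fcer1g at 0.631 (log2 -0.67, interval -1.26 to -0.07) and Fcgr3 at 0.736 (log2 -0.44, interval -0.81 to -0.07). These 3 had an unadjusted p under 0.05 in limma (0.0208, 0.0301 and 0.0220), as did 2.2% of all genes in that direction, and an adjusted p of 0.778 each. Without vehicle mouse 1 the estimates were nearer to 0, at -0.53 log2 for Tyrobp (a level of 0.691), -0.45 for Fcer1g and -0.30 for Fcgr3. Without both mice numbered 1 they were -0.74, -0.61 and -0.42 log2, and without vehicle mice 1 and 5 they were -0.28, -0.19 and -0.17 log2. In the same order of genes, the unadjusted p in limma was 0.0472, 0.0803 and 0.0539 without vehicle mouse 1 (adjusted p = 0.741, 0.768 and 0.745). Without both mice numbered 1 it was lower, at 0.00231, 0.0186 and 0.00367 (adjusted p = 0.384, 0.460 and 0.414).

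For Fcgr1 the estimate was -0.13 log2 (interval -0.50 to 0.24), so a level with siponimod below or above that with vehicle lies within the interval. For Fcgr2b and Ptpn6 the estimates were -0.44 (interval -0.97 to 0.09) and -0.43 log2 (interval -0.91 to 0.06). Leaving out vehicle mouse 1 moved these to -0.27 and -0.22 log2, and leaving out both mice numbered 1 to -0.44 and -0.34 log2. Syk (-0.18, interval -0.40 to 0.04), Plcg2 (-0.10, interval -0.36 to 0.17) and Inpp5d (0.01, interval -0.40 to 0.43) had intervals that include 0 as well. The groups overlapped for all 9 genes, while 0.344% of all genes were separated with siponimod lower. Without both mice numbered 1, Tyrobp and Syk were separated (2 of 9, against 1.99% of all genes), and 0 of the 9 passed the test. In the authors' deposited table Fcgr3 was the 1 gene of the 9 below 0.05, at 0.723 of the vehicle level (adjusted p = 0.0388), against 0.64% of all genes listed as lower. Fcgr1 was at 0.704 of the vehicle level there (log2 -0.51, adjusted p = 0.103 in the authors' deposited table), with -0.13 log2 in limma.

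To set these genes beside common microglial markers, their levels were taken relative to a microglial reference in the same mouse. Csf1r, Itgam and Siglech, which are also in the receptor list below, were left out of it. The reference was the mean log2 level of 9 microglial genes (Cx3cr1, P2ry12, P2ry13, Tmem119, Aif1, Selplg, Sall1, Olfml3 and Gpr34). It lay between 3.60 and 3.836 in control mice, 3.843 and 4.62 in vehicle mice and 3.77 and 4.12 in siponimod mice, so vehicle mice were above all controls, the lowest by a small margin, and siponimod mice overlapped them. Relative to this reference, 5 of the 9 genes stayed above control in every vehicle mouse (Tyrobp, Fcer1g, Fcgr3, Fcgr2b and Ptpn6, against 0.581% of all genes). In siponimod mice 4 did (the same without Fcer1g, against 0.79%). Without both mice numbered 1 these counts were 6, with Plcg2 added (0.965%), and 4 (1.19%). Ptpn6 lay 0.83 log2 above the reference change in vehicle mice and 0.65 in siponimod mice, and Tyrobp 1.07 and 0.47. Fcgr1 did not separate, at 0.53 and 0.65 log2, nor did Syk, at -0.26 and -0.20 log2, or Inpp5d, at -0.27 and -0.014 log2. The reference genes did not move alike, from -0.10 log2 (P2ry12) to 0.98 log2 (Aif1) in vehicle against control. Standing above the reference therefore depends on the genes it holds. Of 12 microglial markers 0 were called in vehicle against control with all mice, and 7 rose without both mice numbered 1. The median log2 fold change was 0.37 under both.

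**Figure D3:**
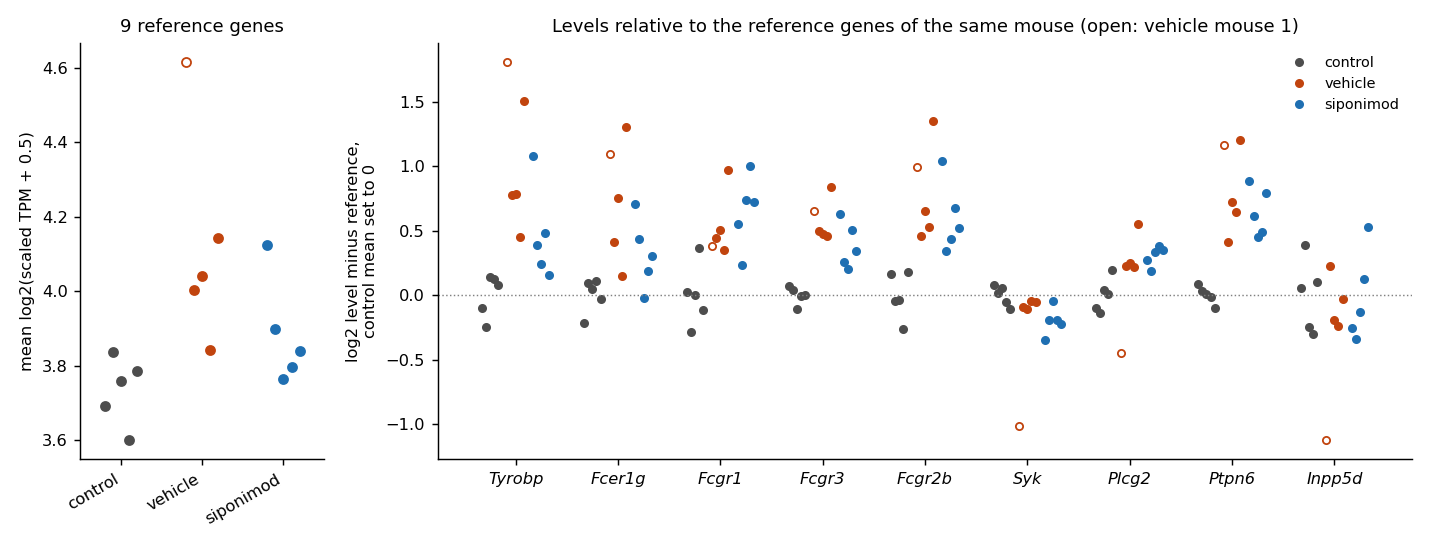
Left, mean log2(scaled TPM + 0.5) of the 9 microglial reference genes in each mouse. Right, log2 level of each gene minus that reference in the same mouse, with the control mean set to 0. In Tyrobp, Fcgr3, Fcgr2b and Ptpn6 all vehicle and siponimod mice lie above the control mice, whereas Syk and Inpp5d do not, and vehicle mouse 1 (open) is the lowest point for Syk, Plcg2 and Inpp5d.

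Markers of other immune cells, several of which use Fc receptors, were examined in the same mice. Of 6 monocyte markers 1 (Ccr2) had a level in all 15 mice, at most 0.290 TPM, and of 7 neutrophil and 6 mast cell markers 0 did. Border-associated macrophage markers summed to between 13.2 and 15.1 TPM in control, 12.4 and 17.6 TPM in vehicle and 13.8 and 17.7 TPM in siponimod mice, and 0 of the 6 tested were called in vehicle against control. Of 5 dendritic cell markers 3 had a level in all mice, summing to between 10.2 and 11.7 TPM in control, 3.85 and 11.4 TPM in vehicle and 9.50 and 10.9 TPM in siponimod mice. Of 12 T and NK cell markers 2 did (Cd4 and Il2rb), summing to between 6.43 and 13.9 TPM in control, 1.85 and 10.9 TPM in vehicle and 6.18 and 8.70 TPM in siponimod mice, and of 5 B cell markers 1 did, at most 0.643 TPM. The sums are of TPM as deposited, with vehicle mouse 1 not scaled. Neuronal markers likewise summed to between 1465 and 3233 TPM in vehicle mice, with 3241 to 3326 TPM in control mice. On scaled values 0 of the 3 tested dendritic cell markers were called in vehicle against control (median -0.09 log2). Of T and NK cell markers 1 was tested, Cd4, and it was not called (-0.19 log2). None of the listed markers with a level in all mice was at 0 throughout. A marker counted as without a level in all mice where it was not listed for every group, as with Hcst. Such markers were not examined further, so these counts do not show that their cells were absent. The part of these cells in the levels was not tested.

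A ratio of TPM between genes of 1 mouse does not depend on the scaling of the library, though the tests used log2(scaled TPM + 0.5), which pulls ratios of low genes together. Of the 6 ratios examined, Ptpn6 over Syk, an inhibitory phosphatase over the ITAM kinase, was the 1 whose groups did not overlap. The TPM ratio was 1.53, 1.53, 1.46, 1.59 and 1.53 in control mice, 7.95, 2.24, 2.85, 2.61 and 3.85 in vehicle mice and 3.93, 2.86, 2.25, 2.64 and 3.40 in siponimod mice. Control mice were nearly constant, and every mouse of either cuprizone group was above them. The differences of 1.09 and 0.85 log2 had an exact permutation p of 0.00794, the smallest that 5 mice against 5 allow, and an adjusted p of 0.0635 over the 16 ratio tests. At that smallest p, passing also depends on how low the other tests are, so full separation of the groups is not enough by itself. Vehicle mouse 1 had by far the highest ratio, and without both mice numbered 1 the differences were 0.82 and 0.75 log2. The ratio of Tyrobp to Fcer1g was 0.32 log2 higher in vehicle than in control mice (exact permutation p = 0.0317, adjusted p = 0.127), and that of Fcgr1 to Fcgr3 differed by -0.05 log2 (exact permutation p = 0.722). Inpp5d over Syk differed by -0.01 log2 (exact permutation p = 0.960).

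Of the other genes of the pathway, 5 of 9 tested receptors that signal through these adaptors or through Syk rose in vehicle mice and 0 fell (25 were listed, and 1.38% of all genes were called higher), with a median log2 fold change of 0.72. Clec7a, a receptor for fungal glucans with a single ITAM-like motif of its own, rose 14.4-fold, from 0.254 ± 0.159 to 9.95 ± 7.13 TPM (adjusted p = 4.30e-05 in limma). Trem2, the lipid receptor that pairs with Tyrobp, rose 2.58-fold, from 14.8 ± 0.752 to 34.4 ± 12.4 TPM (adjusted p = 0.0275). Itgb2 (adjusted p = 0.0170), Cd300c2 (0.0262) and Clec5a (0.0273) rose as well, whereas Csf1r, the growth factor receptor of microglia, had a fold of 1.27 (adjusted p = 0.125). The Clec7a call held in all 15 fits without 1 mouse. That of Trem2 was lost in 6 of them (without any 1 control mouse or vehicle mouse 5), that of Cd300c2 in 5, that of Clec5a in 4 and that of Itgb2 in 1.

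Among Src family kinases, which phosphorylate the ITAM, 1 of 6 rose, Lyn, by 1.53-fold (adjusted p = 0.0249 in limma). That call was lost in 5 of the 15 fits without 1 mouse. It was also lost with mouse number added to the fit (adjusted p = 0.0523 in limma). In control mice Fyn had 75.3 ± 4.41 TPM and Src 61.4 ± 4.75 TPM, with 4.06 ± 0.366 TPM for Lyn. Which cells gave these levels, or those of the lists that follow, was not tested. Of 31 downstream effectors 5 rose: Lat2 (2.74-fold, adjusted p = 0.0163), an adaptor of the signalling complex, Cyba (2.92-fold, 0.0204), a subunit of the phagocyte oxidase, Vav1 (1.94-fold, 0.0278), an exchange factor for Rac, and the oxidase genes Cybb and Ncf1, with a median of 0.49 log2 over the list. These 5 calls were lost in 2, 3, 5, 6 and 13 of the 15 fits, in that order. Without both mice numbered 1 the counts were 7 of 9 receptors, 1 of 6 kinases, 10 of 31 effectors and, of the lists that follow, 2 of 10 inhibitory receptors and 1 each of the inhibitory enzymes and the other Fc-binding proteins, where 2.41% of all genes were called higher.

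Of 10 tested receptors with an inhibitory motif 1 rose, Lilrb4a, by 5.79-fold (adjusted p = 0.00432 in limma). Of 13 further enzymes and adaptors, most of them inhibitory, 1 rose, Ptprc, by 2.40-fold (adjusted p = 0.00156). It encodes CD45, a phosphatase that removes the inhibitory phosphate of Src family kinases and can thereby promote as well as limit ITAM signalling. Of 6 other genes for Fc-binding or related proteins 1 rose, Fcrls, a microglial Fc receptor-like gene, by 2.22-fold (adjusted p = 0.00976). These 3 calls held in all 15 fits without 1 mouse. Of the 3 tested genes for immunoglobulins, the ligands of Fc receptors, 0 were called (median 0.02 log2). The list medians were 0.43 log2 for inhibitory receptors and 0.03 log2 for inhibitory enzymes and adaptors, beside 0.0072 log2 over all genes.

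In siponimod against control mice, Clec7a was the single called gene of these 7 lists (7.38-fold, adjusted p = 0.000713 in limma), and 0 were called in siponimod against vehicle. Trem2 had a fold of 1.53 against control (adjusted p = 0.742) and of 0.595 against vehicle (adjusted p = 0.778), close to the values of Tyrobp.

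**Figure D4:**
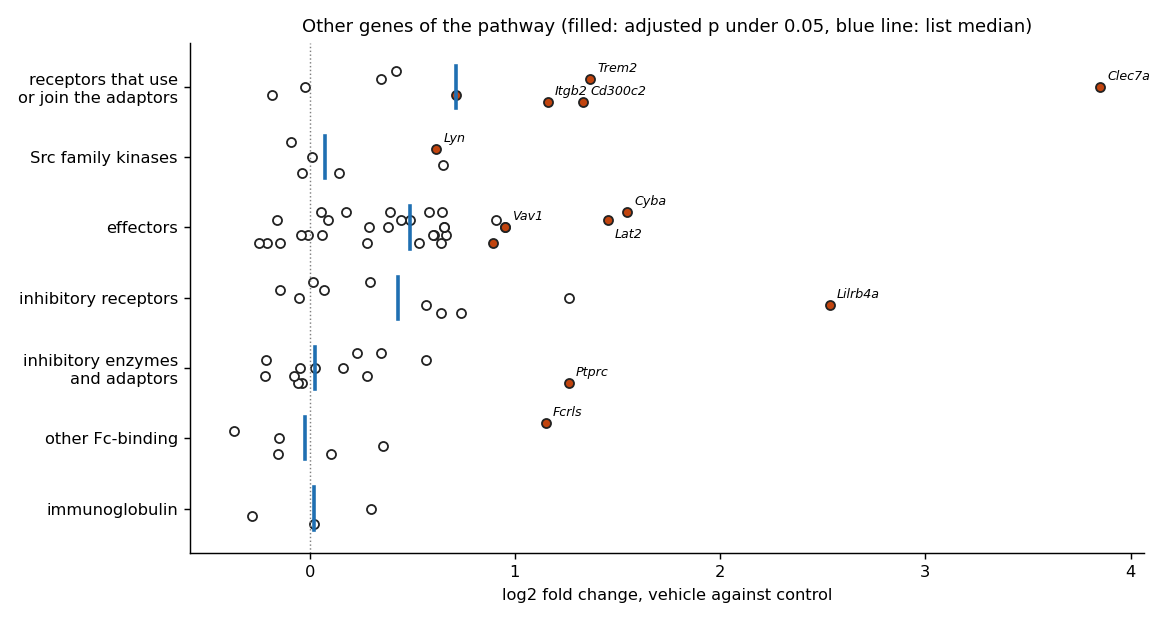
Log2 fold change in vehicle against control mice of each tested gene of the 7 pathway lists, filled where the adjusted p is under 0.05, with the list median as a blue line. The receptors hold 5 filled points of 9 and the effectors 5 of 31, and the other lists hold 1 each or, for immunoglobulin, 0.

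The genes with the profile most like that of Tyrobp over the 15 mice, by root mean square distance between centred log2 levels among 15861 genes, were Ly86 (0.107 log2), Trem2 (0.136), Cyba (0.181), C1qc (0.186) and C1qb (0.193), where Tyrobp itself varied by 0.787 log2. For Fcgr2b they were Ptpn6 (0.169), Anxa3 (0.179), C1qc (0.180), Fcgr3 (0.186) and Hcls1 (0.188), so 2 of the 5 nearest were genes described here. For Syk, which varied by 0.140 log2, they were Lrrcc1, Hif1a, Enpp1, Ppp4r3b and B3galnt2, at 0.0909 to 0.103 log2. The genes share library and scaling in each mouse, so likeness includes what is common to a library. Distances were not computed without vehicle mouse 1, where Tyrobp lay 1.54 log2 above the mean of the other vehicle mice. The part of the length gradient of that mouse in these distances was not tested.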

How the data were processed

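RNA of 15 mice was sequenced. Per the labels' protocols the library kit was for stranded total RNA with ribosomal RNA removed, whereas the first line of each deposited table names a 3 prime mRNA analysis; which was used is not settled. The submitters' processing notes name bcl2fastq, Trim Galore 0.6.6, STAR 2.6.1d, Salmon 1.4.0 and mm10. No source used here says whether quantification used strand. The authors deposited 3 tables, each with TPM per mouse and, for their own comparison, a log2 fold change, its error, a test statistic (a score), a mean signal over libraries and p-values, per the file headers, which do not name the test.

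TPM were multiplied by a library factor that sets the median gene equal, and log2(scaled TPM + 0.5) of 17714 genes was fitted in limma 3.58.1 (R 4.3.3) with the 3 groups in 1 model (eBayes, trend on) and p-values adjusted over all tested genes by Benjamini-Hochberg. The pseudocount understates changes of genes with low TPM. The fit was also run on simulated data with independent noise in each gene. Those data held no library or length effect, so they do not test the fit for such effects. Mouse levels in the text are deposited TPM unless said to be scaled, and fold changes are on the scaled log2 scale. Ratios used two-sided exact permutation tests (scipy 1.17.1, Python 3.11.15). The 10 genes, the lists and the named-gene rule (all 10 genes, up to 3 called genes per list with the smallest adjusted p, and Trem2, Csf1r and Lyn) were chosen with earlier results of these data known; Clec5a, Cybb and Ncf1 were named after their values were seen. Positions are from GENCODE M21. A planned search for protein motifs was not made. Of the planned microglial markers, 1 is not reported here and was left out of the marker list and the reference.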

Additional observations from a re-analysis of the deposited data

Results flagged for a closer look

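Of 49 groups of 5 mice examined for a mouse far from the others, 3 held one, and chance gives about 1 in 20. Siponimod mouse 1 stood apart for Tyrobp, at 6.49 log2 scaled TPM against a group median of 5.56. The same mouse stood apart for Fcgr2b, at 3.27 log2 scaled TPM against a median of 2.47. Its microglial reference score was also the highest of the siponimod mice (4.12), and the part of this in the 2 genes was not tested. For the ratio of Tyrobp to Fcer1g, control mouse 2 stood apart at 0.772 log2, against a control median of 1.20.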

How the results depend on the processing

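Counts were sensitive to which mice and genes entered. Genes called in vehicle against control numbered 426 (244 higher), with 220 (75 higher) on unscaled TPM, 142 among genes at or above the median mean TPM, 245 with these groups alone and 773 without both mice numbered 1 (269 to 672 without 1 mouse). Genes described here numbered 7, with 3, 2 (of 3 tested), 3 and 7 in the same order, 4 without vehicle mice 1 and 5, and 3 to 7 without 1 mouse. In siponimod against control 208 genes were called (76 higher), with 132 (37 higher) unscaled, 70, 505 (253 higher) and 390 in that order, 613 without vehicle mice 1 and 5, and 151 to 528 without 1 mouse. Genes described here numbered 1, with 0, 0, 4 and 2, 5 without vehicle mice 1 and 5, and 0 to 3. In siponimod against vehicle 0 were called under every alternative run.

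Some estimates changed sign. On unscaled TPM, Syk was at -0.044 and Inpp5d at -0.11 log2 in vehicle against control, and Fcgr1 at 0.093, Plcg2 at 0.094 and Csf1r at 0.10 in siponimod against vehicle. In that comparison Plcg2 was at 0.0033 with Bc1 taken out, Inpp5d at -0.077 without both mice numbered 1 and -0.054 with length bins centred, and Fcgr1 at 0.14, Inpp5d at -0.023 and Lat2 at 0.038 without vehicle mice 1 and 5. Without 1 mouse, Inpp5d ranged from -0.11 to 0.11 and Plcg2 from -0.15 to 0.0030. Ratios without 1 mouse ranged from -0.061 to 0.076 (Fcgr2b over Fcgr3) and -0.39 to 0.025 (Ptpn6 over Syk) in siponimod against vehicle, and from -0.13 to 0.039 (Fcgr1 over Fcgr3) and -0.091 to 0.084 (Inpp5d over Syk) in vehicle against control. With pseudocount 0, Fcgr2b over Fcgr3 was -0.019 and Fcgr1 over Fcgr3 was 0.087, and without both mice numbered 1 they were -0.016 and 0.00056, with Inpp5d over Syk at 0.017. The cause of these changes was not tested. Length bins and leaving out vehicle mice 1 and 5 were chosen after seeing the data.

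With mouse number as a replicate block, 369 and 182 genes were called against control in vehicle and siponimod mice, the call of Fcgr1 in siponimod mice was lost (0 of 9; adjusted p = 0.0515 in limma), and that of Lyn in vehicle mice too (adjusted p = 0.0523). Same-numbered mice had correlations of -0.069 to 0.21. No values for mice of different numbers were set beside them, so whether the numbers pair the mice is not settled. TPM keep no depth, so counting error is unknown and the spread between mice alone sets precision.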
